A study of Macaca mulatta with 38 samples.

Results

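The barcodes described here were read from Gr or Mono DNA of a rhesus macaque at day 32 after transplantation and from day 119 on in its T or B libraries only. Each barcode is a short stretch of DNA, placed in the genome of a cell by a lentiviral vector and passed on to all daughter cells. The members were chosen by their counts. A member had counts in Gr or Mono of day 32, none in T of day 32, none in any of the 12 Gr and Mono libraries from day 119 on, and counts in at least 1 of the 15 T and B libraries from day 119 on. This held for 8173 of 44423 sequences in the table, and for 8173 of the 15744 with counts in Gr or Mono of day 32. The absence from later Gr and Mono libraries and from T of day 32 is therefore the rule and not a result.

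All 38 libraries come from peripheral blood of 1 male macaque of 4 years, ZL34. Per the labels' protocols, its CD34+ cells were collected after G-CSF/AMD1300, exposed to the barcoded vector library at a multiplicity of infection of 25 and returned after TBI, and the animal was given cidofovir at 5 mg/kg weekly, so these hold for every library. By the labels there are 7 Gr, 7 Mono, 9 T and 8 B libraries, and besides these 5 nRBC, 1 CD34p and 1 EOS, with 1 library for each cell type and day and no purity of the sorted cells. A cell exposed to this much vector can carry several barcodes, so members are not separate clones. Libraries held 766039 to 3832849 reads of listed barcodes. The shallowest were T and B of day 494, with 766039 and 789584. Serial samples of 1 animal are not biological replicates, and spreads below are over days.

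Transplanted CD34+ cells are a mix of long-lived stem cells and shorter-lived progenitors. Granulocytes and monocytes live briefly in blood, so a barcode remains there only while cells upstream keep producing them. T cells mature in the thymus and B cells in the marrow, and memory lymphocytes can persist and divide for long after the cells upstream are gone. A barcode in lymphocytes can thus come from new production or from old cells, which read counts do not tell apart.

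No count from 1 to 100 occurs in the table, so a barcode at 0, called unlisted here, may have had up to 100 reads. This limit is taken from the values. It corresponds to 0.00263 to 0.00471% of reads in the later Gr and Mono libraries, 0.00289 to 0.0131% in the later T libraries and 0.00297 to 0.0127% in the later B libraries. In total, 8173 barcodes at 100 reads each would make 21.5 to 38.5% as many reads as a later Gr or Mono library lists. In the same way, the members unlisted in a later T library would make 20.6 to 106% as many reads as it lists. For a later B library this was 16.1 to 99.2%. "Only lymphoid" therefore means listed only there. Summed shares below count listed reads alone, and no exact 95% interval of a summed share was wider than 0.163 percentage points, for counting error only.

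The 8 members with the highest mean share in T and the 8 with the highest in B are shown first, since their own time courses are described below. They are numbered m1, m2 and so on by mean share over the 15 later T and B libraries. Each line gives the deposited sequence up to the start of the sequencing adapter, 5′ to 3′, with the 6 bases shared by the library in lower case and the variable barcode in capitals. A barcode that ends in the adapter's first base cannot be told from 1 that is a base shorter. The 8 highest in T were as follows.
m1: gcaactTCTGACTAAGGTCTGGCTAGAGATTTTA
m2: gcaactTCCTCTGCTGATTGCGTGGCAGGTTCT
m3: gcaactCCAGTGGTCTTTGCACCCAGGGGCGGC
m5: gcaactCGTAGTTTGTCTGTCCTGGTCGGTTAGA
m6: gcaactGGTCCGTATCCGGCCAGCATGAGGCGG
m7: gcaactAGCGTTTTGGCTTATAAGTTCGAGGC
m9: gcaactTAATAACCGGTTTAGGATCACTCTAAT
m10: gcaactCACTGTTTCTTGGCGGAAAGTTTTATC

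The 8 highest in B, and m26, the member that was listed in all 15 later T and B libraries, were as follows.
m4: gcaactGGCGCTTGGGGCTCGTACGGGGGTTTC
m19: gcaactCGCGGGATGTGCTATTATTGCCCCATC
m24: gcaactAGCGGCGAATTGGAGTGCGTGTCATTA
m28: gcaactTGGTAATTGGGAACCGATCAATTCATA
m37: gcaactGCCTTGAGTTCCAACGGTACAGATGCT
m40: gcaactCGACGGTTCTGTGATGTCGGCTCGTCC
m41: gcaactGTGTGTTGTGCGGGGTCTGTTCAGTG
m44: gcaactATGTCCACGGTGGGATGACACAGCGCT
m26: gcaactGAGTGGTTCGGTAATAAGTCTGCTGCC

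The members' sequences did not look like copies of one another or of abundant barcodes. No member lay within 2 mismatches of any other sequence in the table over the 50 deposited bases, and none became equal to another variable part when 1 base was removed from either. The same was true of all 44423 sequences. Of the members, 8038 began with GCAACT and 135 with GGCAAC, which holds 1 more base in front. The variable part could be read in 7983, was 27 bases long in 6631 (81.1%), and had a median G and C content of 53.6%. Among the other 36250 sequences 79.9% had 27 bases, and the median G and C content was also 53.6%.

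At day 32 the members made up about as much of Gr as of Mono. They held 52.1% of Gr reads with 4641 members listed and 51.2% of Mono reads with 5356 listed. These shares were fixed in part by the rule. Of the 8173, 2817 were listed in Gr alone, 3532 in Mono alone and 1824 (22.3%) in both. Most stood close to the lower limit of the table: the median count was 144 reads in Gr and 152 in Mono, and the higher of the 2 counts was at most 110 reads in 740 members. The smallest was 101. The highest were 855 reads in Gr and 1772 in Mono.

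Of the 5 members with the highest summed share in Gr and Mono of day 32, 4 were later listed on 1 day only. m5740 held 0.0922% of Mono and 0.0106% of Gr, and its later counts were in T of day 365 alone, at 0.00691%. m2612 held 0.0870% of Mono and 0.00925% of Gr and was later in T of day 119 alone, at 0.0175%. m5995 held 0.0874% of Mono, was unlisted in Gr and was later in T of day 119 alone, at 0.00590%. m4548 held 0.0832% of Mono and 0.0116% of Gr and was later in T (0.00427%) and B (0.00523%) of day 119. m328, the exception, with 0.0484% of Mono and 0.0364% of Gr at day 32, was later in B from day 119 to day 365, with at most 0.0240%, and in T of day 119.

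B at day 32 was not used by the rule, and it listed 2771 of the members (33.9%), which held 19.5% of its reads. Among day 32 Gr or Mono barcodes that were unlisted in T of day 32 and in every Gr, Mono, B and T library from day 119 on, 1032 of 4233 (24.4%) were listed in B of day 32. Among those that were listed again in later Gr or Mono libraries the number was 1211 of 3144 (38.5%). In barcodes of later T or B libraries with no counts in any Gr or Mono library nor in T of day 32, here called lymphoid-only barcodes, it was 4198 of 18491 (22.7%). The members thus stood between those not seen again and those that stayed in Gr or Mono, in an order that the share listed in both Gr and Mono of day 32 also had: 11.4%, 22.3% and 29.2%. Barcodes are not independent samples, so no test was made. Median counts at day 32 had the same order, with 131, 144 and 152 reads in Gr and 138, 152 and 172 in Mono, and their part in these differences was not tested.

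B was the lineage in which most members were found later. From day 119 on, 4177 members (51.1%) were listed in B and never in T, 1083 (13.3%) in T and never in B, and 2913 (35.6%) in both. So 7090 (86.7%) were listed in B at some later day and 3996 (48.9%) in T. Among lymphoid-only barcodes 76.5% were listed in B and 44.4% in T. Among all barcodes of Gr or Mono at day 32, 64.4% and 40.0% were. For those unlisted in T of day 32 and listed in later Gr or Mono, it was 92.0% and 70.1%. The higher number in B was thus not particular to the members. Later B libraries listed 3296 to 13465 barcodes and later T libraries 1019 to 8450, and the part of this was not tested. Members found later in both lineages had most often been in B of day 32 already, in 38.2% of cases, against 32.9% of those later in B alone and 26.3% of those later in T alone. Of the 2771 members in B of day 32, 89.7% were listed in a later B library, and of the 5402 others 85.2%.

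Members from Gr alone and from Mono alone had similar later lineages. Of members listed in Gr alone at day 32, 46.9% were later in T and 84.6% in B. Of those listed in Mono alone, 47.7% and 86.7% were. Of those listed in both, 54.2% were later in T and 90.1% in B, and 40.2% were in B of day 32. These had the higher shares at day 32, with a median of the higher of both shares of 0.0123%, against 0.00959% for Gr alone and 0.00744% for Mono alone. When members were put in order of that share and divided into 4 sets of 2007 to 2092, the mean number of later T and B libraries with counts was 2.23, 2.30, 2.46 and 2.89 from the lowest set to the highest.

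The members held a larger share of B reads than of T reads on every shared day. In B they held 22.5% of reads on day 119, 20.1% on day 187, 15.8% on day 266, 12.0% on day 365, 14.6% on day 393, 6.87% on day 494 and 9.05% on day 553. In T they held 14.7% on day 119, 7.58% on day 187, 6.77% on day 266, 5.59% on day 365, 7.07% on day 393, 2.95% on day 494, 5.25% on day 536 and 3.79% on day 553. Both courses ran down from day 119, but neither fell steadily: both were higher at day 393 than at day 365, and higher after day 494 than on it. Over the 7 shared days the mean was 6.92% ± 3.84 in T and 14.4% ± 5.64 in B (SD, n = 7 days). T was lower by a mean of −7.50 percentage points (SD 2.80), on 7 of 7 days (two-sided exact sign-flip permutation p = 0.0156, adjusted p = 0.0156 over 3 lineage comparisons). That is the smallest p that 7 days allow, and it speaks of the days of this animal only. The libraries compared are among those by which the rule chose the members. Through B alone 4177 members entered and through T alone 1083, so p does not test the difference apart from that choice.

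The members were also a smaller part of the barcodes that T listed. They were 2147 of 8450 barcodes in T of day 119 (25.4%) and 2202 of 8349 in B (26.4%). At day 187 they were 412 of 2158 in T (19.1%) and 3253 of 13465 in B (24.2%), and at day 553 they were 517 of 3142 (16.5%) and 1602 of 7935 (20.2%). Over the 7 days T differed from B by −3.30 points (SD 1.26), lower on 7 of 7 days (exact permutation p = 0.0156, adjusted p = 0.0156). The difference did not pass with a minimum of 200 reads for a listed barcode (−0.885 points, adjusted p = 0.0938 in the same exact permutation test). Here too the rule had used the libraries compared, so p does not test the difference apart from the choice of members.

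Lymphoid-only barcodes were also a smaller share of T than of B, at 22.9% and 25.2% on day 119 and 6.13% and 13.7% on day 553. For each unit of lymphoid-only reads there were 0.657 ± 0.0592 units of member reads in T and 0.750 ± 0.105 in B (SD, n = 7 days), a difference of −0.0935 (exact permutation p = 0.0156, adjusted p = 0.0156), lower in T on 7 of 7 days. This ratio was chosen after the shares were seen, and both of its sets were chosen by counts in the libraries compared. Here too p does not test the difference apart from these choices. The difference rested on day 119, where the ratio was 0.642 in T and 0.893 in B. Without day 119 the difference was −0.0145 (exact permutation, adjusted p = 0.594), and without day 365 it was −0.0655 (adjusted p = 0.125).

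The members' summed share fell with the day in both lineages. Spearman's rho over the 8 days of T was −0.857 (exact permutation p = 0.0107, adjusted p = 0.0107). Over the 7 days of B it was −0.929 (exact permutation p = 0.00675, adjusted p = 0.0107). Pearson's r was −0.831 in T (exact permutation p = 0.00171, adjusted p = 0.00238) and −0.955 in B (exact permutation p = 0.00238, adjusted p = 0.00238). The rule admitted members through these same libraries: 413 through T of day 119 alone and 0 through T of day 494 alone. For B of day 187 and of day 494 the numbers were 729 and 8. These p-values thus do not test the fall apart from that choice, and they take serial samples of 1 animal as exchangeable. When the 2 most outlying days were left out (days 119 and 187 in T, 119 and 553 in B), r came to −0.732 in T (exact permutation, adjusted p = 0.108) and −0.944 in B (adjusted p = 0.0667), so neither passed on the days left. With the same minimum share of 0.0132% for a listed barcode in every library, rho in B was −0.607 and did not pass (exact permutation, adjusted p = 0.167). Neither fall passed as a share of reads outside the 6 barcodes that led the nRBC libraries by mean share: rho was then −0.548 in T (exact permutation, adjusted p = 0.171) and −0.750 in B (adjusted p = 0.133).

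Most members were seen in few libraries. 3236 (39.6%) had counts in 1 of the 15 later T and B libraries, 6476 (79.2%) in 3 or fewer, and 69 in 10 or more. Of those in 1 library, 729 were in B of day 187, 459 in B of day 393 and 413 in T of day 119. The highest later count was at most 110 reads in 452 members, so many were near the limit when seen. Lymphoid-only barcodes were listed in a mean of 1.76 later T and B libraries and 61.3% of them in 1, against 2.47 for the members. Day 32 barcodes that stayed in Gr or Mono, which the rule keeps apart, were listed in a mean of 6.00.

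Members appeared at every later day. Their first T or B library was of day 119 in 3697 members (45.2%), of day 187 in 1948 and of day 266 in 886. It was of day 365 or later in 1642 (20.1%), so that these went unlisted in T and B from day 32, apart from B of day 32, until then. The last library was of day 553 in 1984 members (24.3%) and of day 393 in 2004 (24.5%). 954 members (11.7%) were listed at both day 119 and day 553, and 36 on all 8 later days. Few members began or ended at day 494 (14 and 123), when T and B had the fewest reads. First and last days were not counted for other barcodes, so this timing is not shown to be particular to the members. Later T libraries listed 1019 to 8450 barcodes of any kind and later B libraries 3296 to 13465, and the part of this was not tested.

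The number of members listed varied from day to day, largely along with the number of all barcodes listed. T listed 2147 members at day 119, 412 on day 187, 876 on day 266, 591 on day 365, 1096 on day 393, 79 on day 494, 770 on day 536 and 517 on day 553. Of the 3996 members that were ever in T, 1221 (30.6%) were there at day 119 and on no other day. B listed 2202 on day 119, 3253 on day 187, 2005 on day 266, 1706 on day 365, 2588 on day 393, 344 on day 494 and 1602 on day 553. Members were most numerous in T of day 119 and B of day 187. Among the later T and B libraries these also listed the most barcodes in all, 8450 and 13465. As a percent of listed barcodes, members were highest at day 119 in both lineages. In T, 2590 members were in 1 library, 831 in 2 and 575 in 3 or more. In B, 3501 were in 1, 1878 in 2 and 1711 in 3 or more.

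Between day 119 and day 187, a larger part of the B members than of the T members was found again. Of the 2202 members of B at day 119, 974 (44.2%) were listed again at day 187, which is 29.9% of the day 187 members. Of the 2147 of T on day 119, 166 (7.73%) were, which is 40.3% of those of T at day 187, a library that listed 2158 barcodes in all. From day 365 to day 393 the number was 700 of 1706 in B (41.0%) and 229 of 591 in T (38.7%). Among lymphoid-only barcodes 31.8% of B and 5.04% of T of day 119 were found again at day 187, and 31.0% and 35.6% of day 365 on day 393. On the same day, T and B shared 652 members at day 119, 30.4% of those in T and 29.6% of those in B. At day 553 they shared 135, 26.1% of those in T and 8.43% of those in B.

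Single members were small in both lineages. When listed, the median share of a member ran from 0.00390 to 0.0213% in T and from 0.00414 to 0.0166% in B, both highest at day 494, when the limit was also highest. 16 members reached 0.1% of a T library, and m4 was the 1 member to do so in B. The 10 largest members held 47.4% of all member reads in T of day 494 but 7.58 to 17.9% in T on the other days. In B they held 10.6% on day 494 and 1.90 to 3.36% on the other days. At day 494 T listed 79 members and B 344, the fewest of the later libraries of each lineage. The limit was then 0.0131% of reads in T and 0.0127% in B, and the part of this in these percentages was not tested.

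The 8 leading T members were highest on different days. m1, m2, m3 and m5 were highest at day 494, and m6, m7, m9 and m10 on day 119 or 187. m1 was unlisted in T at days 119, 187 and 266. It then held 0.0733% on day 365, 0.160% on day 393, 0.317% on day 494 (exact 95% interval 0.305 to 0.330%, n = 1 library), 0.295% on day 536 and 0.0440% on day 553. At day 32 it had been read in Mono alone, at 0.00744% from 143 reads. m2 was listed from day 266 and went from 0.0343% to 0.0959% on day 365, 0.110% on day 393 and 0.303% on day 494, then to 0.151% on day 536 and 0.0369% on day 553.

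m3 and m5 had a similar course with smaller shares at day 494. m3 held 0.0468% of T on day 187, 0.0509% on day 266, 0.0667% on day 365, 0.0908% on day 393, 0.210% on day 494, 0.130% on day 536 and 0.0550% on day 553. m5 held 0.0452% on day 266, 0.0705% on day 365, 0.0701% on day 393, 0.111% on day 494, 0.102% on day 536 and 0.0673% on day 553. All 4 were thus highest at day 494 and lower at day 553. T of day 494 had the fewest reads and listed 1019 barcodes, against 2158 to 8450 in the other later T libraries. The part of this in their shares was not tested. In B from day 119 on these 4 members were listed in 1 library each, or 2 for m1, with at most 0.00826%. m2, m3 and m5 had also been in B of day 32, at 0.00981%, 0.00486% and 0.00408%.

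m6, m7, m9 and m10 were listed in all 8 T libraries and held less at day 553 than at day 119. m6 held 0.0965%, 0.103%, 0.0492%, 0.0515%, 0.0670%, 0.0375%, 0.0247% and 0.0248% at days 119, 187, 266, 365, 393, 494, 536 and 553. m7 went from 0.112% on day 119 (exact 95% interval 0.108 to 0.116%, n = 1 library) to 0.0273% on day 553, and m9 from 0.129% to 0.0164%. m10 held 0.128% on day 119, 0.0164% on day 187, 0.0781% on day 494 and 0.0162% on day 553, so its course was no steady decline. None of the 4 was listed in B of day 32. m7 and m10 were unlisted in all 7 later B libraries as well. With each unlisted value at 100 reads, m7 was at least 11.7-fold and m10 at least 10.4-fold higher in T than in B over the 7 shared days, on 7 of 7 days. m6 was at least 9.74-fold and m9 at least 10.6-fold higher, also on 7 of 7 days. For m1, m2, m3 and m5, with unlisted values in T at 0, the bounds were 13.8-, 16.4-, 14.3- and 10.4-fold. These were higher in T on 4, 5, 6 and 5 of the 7 days. All were chosen for their T share, so these folds are a description.

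The 8 did not share a course, and m10 was least like the others of its set. Pearson's r of log2(percent + 0.01) over the 8 T libraries was 0.782 to 0.946 in the 6 pairs among m1, m2, m3 and m5. It was 0.246 to 0.854 in the 6 pairs among m6, m7, m9 and m10, with the 3 lowest values in the pairs that held m10, and −0.849 to 0.0336 in the 16 pairs between the sets, where m10 had the values nearest 0. The sets were formed by their highest day after the values were seen, so the r within and between them partly follow from that choice, and all points share the same libraries. In all, 136 members were listed in 5 or more T libraries, these 8 included. Their highest share fell at day 119 in 28, at day 187 in 34, at day 365 in 17, at day 494 in 21 and at day 553 in 9.

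The 8 leading B members were listed in 1 to 6 of the 8 T libraries each, whereas those of T were listed in 0 to 2 of the 7 later B libraries. m4 was the largest, with 0.0655% of B on day 119, 0.0488% on day 187, 0.0175% on day 266, 0.0298% on day 365, 0.206% on day 393 (exact 95% interval 0.201 to 0.211%, n = 1 library) and 0.171% on day 494, and it was unlisted on day 553. It had also been the largest member of B at day 32, with 0.0347%, beside 0.0412% of Gr and 0.0145% of Mono. In T it was listed in 3 of 8 libraries, with at most 0.0226%. m40 went in B from 0.00908% on day 365 to 0.0211% on day 393 and 0.0824% on day 494, and stood at 0.0156% on day 553. m44 held 0.0154% of B on day 119, 0.0394% on day 393, 0.0460% on day 494 and 0.0310% on day 553.

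m37 was highest in B at day 187, with 0.0801%, and stood at 0.00458% on day 553. m41 was highest at day 119, with 0.0461%, and stood at 0.00458% on day 553. m19 was listed in all 7 later B libraries at 0.00428 to 0.0621%, with a median of 0.0246%, and in 6 of 8 T libraries at up to 0.0161%. m28 was also in all 7, at 0.0122 to 0.0317%, and in 5 T libraries. m24 was in 6 B libraries at up to 0.0387% and in 5 T libraries at up to 0.0316%. 5 of the 8 were listed in all 7 later B libraries, and each of the 8 was listed in at least 1 T library.

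Mean shares of these 8 were compared over the 7 shared days, with unlisted values at 100 reads in T and at 0 in B. The share in B was at least 9.97-fold that in T for m4, 4.93-fold for m37, 4.88-fold for m40 and 4.64-fold for m44. For the other 4 the bound ran from 1.48-fold (m24) to 3.16-fold (m19). B was higher on 7 of 7 days for m19, m37 and m44, on 6 for m28, m40 and m41, and on 5 for m4 and m24. These 8 did not share a course either: the 28 pairs had r of −0.543 to 0.808 over the 7 B libraries, on the same scale, highest for m40 and m44 and lowest for m37 and m44. Of the 349 members listed in 5 or more B libraries, 89 were highest at day 119 and 90 on day 494, when the limit for being listed was highest.

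A few members were listed in nearly all T and B libraries. m26 was in all 15, with 0.00863 to 0.0244% of T and 0.00420 to 0.0168% of B, and means of 0.0151% ± 0.00569 (SD, n = 8 days) and 0.0122% ± 0.00536 (n = 7 days). m32 was in 14 of 15, with means of 0.0126% ± 0.00813 in T and 0.0129% ± 0.00715 in B. For m26 and m32 the means of T and B thus differed by less than their spread over days. m18 was in 8 T and 5 B libraries, with 0.0771% of T on day 119 and 0.0172 to 0.0335% on the later days. m33 was in 6 T and 7 B libraries, with means of 0.0108% ± 0.0107 and 0.0144% ± 0.0111. In all, 72 members were in 6 or more T libraries, 10 of them never in B, and 136 in 6 or more B libraries, 28 of them never in T. These numbers were not counted for other barcodes, so they are not shown to be particular to the members. Listed in 5 or more later T and B libraries were 12.5% of members and 4.80% of lymphoid-only barcodes. For day 32 barcodes unlisted in T of day 32 and listed in later Gr or Mono it was 58.2%.

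In the nRBC, EOS and CD34p libraries, members were listed in 1 of 7, nRBC of day 393. At day 393 the library listed 201 barcodes, against 9 to 30 in the other 4 nRBC libraries, and 5 of the 201 were members with 0.0779% of reads (exact 95% interval 0.0751 to 0.0807%). m739 held 0.0247% there, from 939 reads, m1912 0.0214%, m3076 0.0142%, m5511 0.0101% and m98 0.00752%. All but m98 held more of this library than of any T or B library, and the 2 largest are shown.
m739: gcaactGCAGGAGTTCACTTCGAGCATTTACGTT
m1912: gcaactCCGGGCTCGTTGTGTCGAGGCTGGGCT
In T, m739 reached 0.00662% and m1912 0.0109%, and in B 0.00921% and 0.00837%. Lymphoid-only barcodes held 0.0504% of the same library. The EOS library of day 494 and the CD34p library of day 553 listed no member among 36 and 12 barcodes, with a limit of 0.00265% of reads for each.

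The edges of the rule were thinly drawn. 2978 further day 32 barcodes that were unlisted in T of day 32 and listed in later T or B were kept out by counts in later Gr or Mono. For 981 of them this was 1 library of the 12, and for 127 of these the count there was at most 110 reads, the smallest being 101. T of day 32 kept out another 109, with 138 to 8661 reads in that library. Of these 109, 93.6% were later in B and 51.4% in T. With both Gr and Mono required at day 32 the rule took 1824 members, and with a minimum of 200 reads for a listed barcode it took 1529, of which 1215 were among the 8173.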

How the data were processed

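The authors' deposited table gives read counts of 44423 sequences, each of 50 bases, for 38 libraries of genomic DNA. That the values are raw counts is inferred, since they are whole numbers and column sums differ. Per the labels' protocols, 200 ng of DNA went into a PCR of 28 cycles. The rules for calling, merging and filtering barcodes, not given in the sources used here, could change which barcodes reach a count. No nonzero count was under 101, and the smallest nonzero count of a library was 117 or lower. Cell type and day come from the labels.

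The members were found by applying the rule to the counts as deposited, with no trimming or merging. Shares are percent of a library's listed reads. The variable part runs from GCAACT to the adapter. T and B were compared over 7 days by exact sign-flip permutation, and trends with the day by exact permutation of Spearman's rho and of Pearson's r, all two-sided. Benjamini-Hochberg adjustment covered 3 lineage comparisons and 2 trends. All of these used libraries by which the rule had chosen the members. Reads of PCR products without molecular identifiers are not independent molecules, so exact Clopper-Pearson intervals at 95% cover counting error only. The steps were tested on simulated data. Python 3.11.15, pandas 2.3.3, numpy 2.4.6 and SciPy 1.17.1 were used.

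Named barcodes were the 8 members with the highest mean share in T and in B, the 5 in most libraries, the 5 highest at day 32, and up to 5 highest in nRBC, EOS or CD34p. The members and lists were chosen with earlier results of these data known.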

Additional observations from a re-analysis of the deposited data

Results flagged for a closer look

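The outlier test was run at both ends of 4 series of days, and chance flags about 1 in 20 such groups. The members' share of T reads at day 119, 14.7%, stood apart from the other 7 later T libraries, the next being 7.58%. The percent of listed barcodes that were members in B at day 494, 10.4%, stood apart below the other 6 later B libraries, the next being 20.2%. B of day 494 had 789584 reads, the fewest of the B libraries, and its part in the value was not tested. The rule had admitted members through these same libraries, 413 through T of day 119 alone and 8 through B of day 494 alone. The outlier test thus does not test either value apart from that choice. In nRBC of day 393, a library outside the comparison of T and B, 5 members were listed with 0.0779% of reads, while the other 4 nRBC libraries listed none.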

How the results depend on the processing

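Of 91 values under alternatives, 77 kept their direction and their side of the threshold or, for the number of members, stayed within 1.5 times 8173. None reversed. The number of members was 1529 with a minimum of 200 reads, 705 with the same minimum share of 0.0132% in every library and 1824 with both Gr and Mono required at day 32. With 200 reads the T minus B percent of listed barcodes was −0.885 and the ratio of member to lymphoid-only share −0.0286 (exact permutation, adjusted p = 0.0938 each). With the same minimum share rho in B was −0.607 and no longer passed (exact permutation, adjusted p = 0.167). As a share of reads outside the 6 leading nRBC barcodes rho was −0.548 in T and −0.750 in B, and neither passed. Without the 2 days farthest from the median, Pearson's r was −0.732 in T (exact permutation, adjusted p = 0.108) and −0.944 in B (adjusted p = 0.0667), with fewer days. With days not paired, that is with no replicate block, the difference of −7.50 points still passed, and those of −3.30 points (exact permutation, adjusted p = 0.266) and −0.0935 (adjusted p = 0.101) did not. Leaving out each day in turn gave 7379 to 8304 members, −8.92 to −7.03 and −3.86 to −3.18 points, ratios of −0.125 to −0.0145, and rho of −0.893 to −0.786 in T and −0.943 to −0.886 in B. Except where numbers show it, the cause was not tested. Merging sequences at 1 mismatch changed nothing, since none were that close, so its values, counted among the 77, could not differ. The ratio and its alternatives were added after seeing the data. Barcodes at under 101 reads cannot be seen, most of all at day 494.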
